A study of Mus musculus with 6 samples.

Results

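Zscan4b, Zscan4c, Zscan4d, Zscan4e and Zscan4f are 5 near-identical genes of a mouse tandem cluster on chromosome 7, and they are described here in induced pluripotent stem cells (iPSCs) with and without the microRNA miR-34a. They were picked by gene symbol, 5 of the 41388 gene rows of the count table. The data were 6 poly(A) RNA-seq libraries, 3 from miR-34a-/- lines and 3 from wild-type lines, all C57BL/6 by label. Each line was grown from a picked colony after embryonic fibroblasts of littermates had been infected with pMX retroviruses carrying mouse Oct4, Sox2 and Klf4, so both genotypes carry those vectors, and all lines were kept on irradiated fibroblast feeders. miR-34a is known as a target of p53, and the question here is how Zscan4 levels differ between pluripotent cells that lack it and those that have it.

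Full-length ZSCAN4 is a nuclear protein with a SCAN domain, through which such proteins pair, and a set of zinc fingers that bind DNA. Whether each of the Zscan4 genes described here encodes all of these parts was not examined. Zscan4 genes are known for a burst of expression in the mouse 2-cell embryo, at the onset of transcription from the embryo's own genome. In cultures of mouse embryonic stem cells they are expressed in a small, changing fraction of the cells, which also express other 2-cell genes and the retrovirus MERVL. ZSCAN4 has been reported to lengthen telomeres by recombination and to lower DNA methylation in those cells. Zscan4c has been described as the main copy in embryonic stem cells and Zscan4d as the main copy in 2-cell embryos.

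The cluster spans 502 kb (mm10, chromosome 7, 10900740 to 11402318, GENCODE M21). Zscan4b (ENSMUSG00000095339) lies on the minus strand at 10900740 to 10905050, Zscan4c (ENSMUSG00000054272) on the plus strand at 11005745 to 11010547, and Zscan4d (ENSMUSG00000090714) on the minus strand at 11161374 to 11166159. Zscan4e (ENSMUSG00000095936) lies on the minus strand at 11306378 to 11310682 and Zscan4f (ENSMUSG00000070828) on the plus strand at 11397915 to 11402318. GENCODE lists all 5 as protein coding, while the RefSeq promoters used here hold no entry for Zscan4e. The annotated copies Zscan4a, Zscan4-ps1, Zscan4-ps2 and Zscan4-ps3 are not analysed here.

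The promoters of the members are shown because the genes moved together and because the copies can be told apart at few positions. RefSeq promoter windows (GRCm38.p6, the mm10 assembly) were at hand for Zscan4b, Zscan4c, Zscan4d and Zscan4f. The 174 bases around the single TATAAA of each window are given 5′ to 3′ on the gene's strand, from 150 bases before the TATAAA, and capitals mark the 12 positions at which the 4 genes are not all alike.
Zscan4b, chr7:10905058-10905231, minus strand: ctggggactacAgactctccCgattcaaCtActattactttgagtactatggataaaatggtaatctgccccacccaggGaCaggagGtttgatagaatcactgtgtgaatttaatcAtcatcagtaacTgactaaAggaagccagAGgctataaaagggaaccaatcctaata
Zscan4c, chr7:11005541-11005714, plus strand: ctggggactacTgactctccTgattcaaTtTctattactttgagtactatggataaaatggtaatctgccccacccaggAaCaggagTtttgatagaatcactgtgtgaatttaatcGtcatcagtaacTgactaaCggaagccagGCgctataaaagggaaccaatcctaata
Zscan4d, chr7:11166190-11166363, minus strand: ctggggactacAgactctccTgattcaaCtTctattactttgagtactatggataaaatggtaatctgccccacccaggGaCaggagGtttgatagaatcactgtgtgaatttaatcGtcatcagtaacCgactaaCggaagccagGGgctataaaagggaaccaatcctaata
Zscan4f, chr7:11397734-11397907, plus strand: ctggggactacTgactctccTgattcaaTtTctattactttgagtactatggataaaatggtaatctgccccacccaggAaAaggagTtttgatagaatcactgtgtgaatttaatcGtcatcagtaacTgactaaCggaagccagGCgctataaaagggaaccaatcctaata

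Zscan4c and Zscan4f differed at 1 of these 174 bases (99.4% identity), while Zscan4b and Zscan4f differed at 11 (93.7%). All 4 windows of 300 bases held the TATA box letters TATAAA, as did 13.6% of the 32851 RefSeq promoter windows. The TATAAA began at -31 from the annotated start in Zscan4b and Zscan4f, at -54 in Zscan4c and at -65 in Zscan4d. Both strands of the windows were also searched for TGCACAC, reported as bound by mouse ZSCAN4, for the DUX motif, for AGGTGTGA of T-box factors and for the octamer ATGCAAAT of OCT4. None of these 4 motifs was found in the 4 windows, against 4.4%, 0.0335%, 1.28% and 1.74% of all windows. The GATA letters AGATAA were found once each in Zscan4b and Zscan4f, both at -236 on the opposite strand, against 11.2% of all windows. The windows begin 250 bases before the annotated start. Those of Zscan4c and Zscan4d, with the TATAAA at -54 and -65, therefore do not reach that far from the TATAAA and give no contrast. Other spellings around GATA were not searched, such as the TGATAG in all 4 printed stretches. A match or its absence in 300 bases says nothing about a factor's binding.

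The mature miR-34a is shown for its seed, bases 2 to 8 in capitals, which pairs with CACTGCC in a target RNA (RefSeq, GRCm38.p6, chromosome 4, 150068473 to 150068494, plus strand).
mmu-miR-34a-5p: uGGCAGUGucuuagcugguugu
No annotated transcript of the 5 Zscan4 genes held CACTGCC, which 32.1% of 21877 protein-coding genes held in at least 1 coding transcript. The shorter ACTGCC was found once in Zscan4c and once in Zscan4f, and 58.3% of the coding genes held it.

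The copies share most of their transcript sequence, which limits what single rows can say. Between the longest transcripts, identity was highest for Zscan4b with Zscan4e (99.6%) and for Zscan4c with Zscan4f (99.5%), and lowest for Zscan4b with Zscan4d (96.6%). Of all 50-base stretches in a gene's transcripts, 9.88% were found in no other annotated gene for Zscan4b, 11% for Zscan4e, 13.2% for Zscan4f and 14.5% for Zscan4c. Zscan4d stood apart with 50.4%. Zscan4a, Zscan4-ps1, Zscan4-ps2 and Zscan4-ps3 together shared 82.6% of the stretches of Zscan4c and 82.2% of those of Zscan4f, against 42.4% to 48% for the other 3 genes. How multi-mapping reads were counted is not stated in the sources, so reads may have moved between members, or between members and copies that are not analysed here. The sum over the 5 rows is therefore given beside each row.

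The libraries held 8235299 to 27933272 gene counts in the knockout and 7935323 to 24156852 in the wild-type lines, so that 3 counts stood for 0.107 to 0.378 CPM (counts divided by library size) depending on the library. Of the 10 pluripotency genes set as markers, 9 were called higher in the knockout, beside 26.5% of all genes tested, and Sall4 was not called. Their summed levels were 8463 to 8843 CPM in knockout and 6639 to 6679 CPM in wild-type lines. In the rows of Pou5f1 (Oct4), Sox2 and Klf4, RNA from the vectors cannot be told apart from that of the cells' own genes. Fibroblast markers, which feeders would bring, summed to 2798 to 3120 CPM in knockout and 3076 to 3398 CPM in wild-type lines. Fn1 was the largest part of this sum, with means of 2015 CPM in knockout and 2134 CPM in wild-type lines. Single markers differed more, such as Postn at 2.05 against 15.7 CPM and Acta2 at 45.6 against 160.5 CPM. S100a4 went the other way, at 70.7 CPM in knockout against 23.45 CPM in wild-type lines. Of 14 tested, 9 were lower and 2 were higher in the knockout, beside 24.0% lower and 26.5% higher among all genes tested, and Lum had 0 counts in knockout and 3 in wild-type lines. Their part in the results was not tested. Mir34a itself had 1 count in knockout and 2 in wild-type libraries, so it gave no check of the labels.

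The whole family was expressed in every knockout line and was near the limit of detection in every wild-type line. Summed over the 5 genes, the knockout libraries held 1143, 1524 and 639 counts in lines 1, 2 and 3, and the wild-type libraries 8, 1 and 9. In levels scaled by TMM factors this was 57.9, 54.4 and 78.3 CPM in the knockout lines, against 0.328, 0.125 and 0.579 CPM in the wild-type lines. The means were 63.5 ± 12.9 CPM in knockout and 0.344 ± 0.228 CPM in wild-type lines (SD, n = 3 lines each). The groups did not overlap, and the ratio of the pooled counts was 157.5 with an exact 95% counting interval of 99.5 to 266.1. That interval covers counting error only. In bulk RNA, more cells with Zscan4 transcripts and more Zscan4 RNA per cell cannot be told apart.

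Zscan4f had the highest level of the family. It had 19.2, 16.7 and 32.9 CPM in knockout lines 1, 2 and 3, against 0.041, 0.125 and 0.129 CPM in wild-type lines 1, 2 and 3. Knockout line 3 was the highest, outside the exact counting intervals of the other knockout lines (29.1 to 37.1 CPM in line 3, 17.4 to 21.3 CPM in line 1 and 15.2 to 18.3 CPM in line 2). The log2 fold change, knockout over wild-type, was 7.90 (SE 0.667, edgeR quasi-likelihood test, Benjamini-Hochberg adjusted p = 0.00026). Zscan4f thus had the widest error of the 5 genes, and without knockout line 3 the same test gave 7.64 (SE 0.259, edgeR adjusted p = 1.2e-16).

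Zscan4c, the copy known from embryonic stem cells, came next. It had 16.4, 13.7 and 16.8 CPM in the knockout lines, against 0.041, 0 and 0.0644 CPM in the wild-type lines. Its knockout and wild-type levels did not overlap, and the coefficient of variation (CV) across knockout lines was 10.8%. The wild-type libraries held 2 counts in all against 843 in the knockout, so the fold is given as a ratio of pooled counts, 361.5 with an exact 95% counting interval of 99.8 to 2990 (edgeR adjusted p = 3.9e-14).

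Zscan4d, the copy known from 2-cell embryos, was the member with the most wild-type counts. It had 11.6, 12.5 and 15.2 CPM in the knockout lines, against 0.246, 0 and 0.257 CPM in the wild-type lines. Its log2 fold change was 5.90 (SE 0.263, edgeR adjusted p = 1.0e-12), the smallest of the 5, and its ratio of pooled counts was 60.4 (32.6 to 126.5). The counting intervals of that ratio and of the ratio for Zscan4c overlapped, at 99.8 to 126.5.

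Zscan4b and Zscan4e, the most alike pair, were the lowest members. Zscan4b had 5.82, 5.75 and 7.72 CPM in the knockout lines, with 0 counts in 2 wild-type libraries and 1 count in the other. Its ratio of pooled counts was 290.8 (51.8 to 11518, edgeR adjusted p = 2.6e-11). Zscan4e had 4.86, 5.75 and 5.63 CPM in the knockout lines, again with a single count in wild-type line 3. Its ratio was 259.9 (46.3 to 10298, edgeR adjusted p = 3.3e-11). In every member the lowest knockout library was far above the highest wild-type library.

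**Figure D1:**
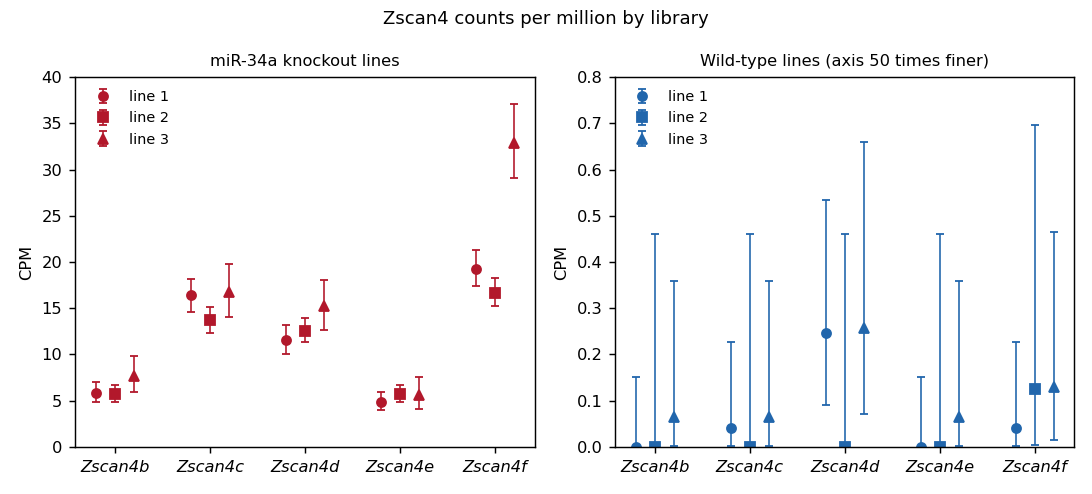
Levels of the 5 Zscan4 genes in CPM (y axis) for each knockout line (left, axis to 40 CPM) and each wild-type line (right, axis to 0.8 CPM), with exact 95% counting intervals as bars. The knockout lines lie between 4.86 and 32.9 CPM, Zscan4f in line 3 being the highest, and no wild-type library is above 0.257 CPM.

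All 5 members were called higher in the knockout, as were 26.5% of the 14717 genes tested (50.5% were called in either direction), and in all 5 the knockout libraries lay above the wild-type libraries, as in 29.2% of the genes tested. This count is no support of its own, since the members were low in the wild-type lines and passed the filter on low counts through the knockout libraries. Of 117 tested genes with 3 or fewer wild-type counts, all 117 were called higher. The fitted fold changes ranked 19 for Zscan4c, 21 for Zscan4f, 25 for Zscan4b, 34 for Zscan4e and 93 for Zscan4d from the top of the genes tested. Fitted values of genes with so few wild-type counts depend on the prior count, so these ranks are a description.

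Per kilobase of exon, the order of the knockout levels was Zscan4f, Zscan4c, Zscan4d, Zscan4b and Zscan4e, with means of 11.7, 6.86, 5.77, 3.57 and 3.02 CPM per kb. Zscan4f and Zscan4c did not overlap across knockout lines, at 8.53 to 16.8 and 6.01 to 7.37 CPM per kb. Zscan4c and Zscan4d overlapped across lines, at 6.01 to 7.37 and 5.10 to 6.68 CPM per kb, although Zscan4c was the higher in each line. Zscan4b and Zscan4e overlapped too, at 3.19 to 4.28 and 2.71 to 3.21 CPM per kb. The order was not tested, and it moves with how reads shared by the copies were counted.

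Shares of the family count differed between knockout lines for Zscan4f and Zscan4c. Zscan4f made up 33.2% (30.5% to 36.1%, exact binomial 95% interval) of the 5-gene count in knockout line 1, 30.7% (28.4% to 33.1%) in line 2 and 42.1% (38.2% to 46%) in line 3. The interval of line 3 lay above those of lines 1 and 2. Zscan4c held 28.3% (25.7% to 31%), 25.1% (23% to 27.4%) and 21.4% (18.3% to 24.8%), the interval of line 3 lying below that of line 1. The level of Zscan4c was not lower in line 3, at 16.8 CPM against 16.4 CPM in line 1, while Zscan4f had 32.9 CPM in line 3 and 19.2 CPM in line 1. Zscan4d held 20%, 23% and 19.4%, Zscan4b 10.1%, 10.6% and 9.86%, and Zscan4e 8.4%, 10.6% and 7.2%, with overlapping intervals for each of these 3 genes.

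The few wild-type counts were spread differently. Zscan4d held 704 of 3306 counts in the knockout (21.3%, 19.9% to 22.7%) and 10 of 18 in the wild-type lines (55.6%, 30.8% to 78.5%), and the intervals did not overlap. Those 10 counts came from wild-type lines 1 and 3, with 6 and 4 counts, and the single Zscan4 count of wild-type line 2 was in Zscan4f. Zscan4d is also the member with the most unique sequence, 50.4% of its stretches against 9.88% to 14.5%, and the part of this in the share was not tested. Shares of the other 4 genes had intervals that overlapped between the genotypes.

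**Figure D2:**
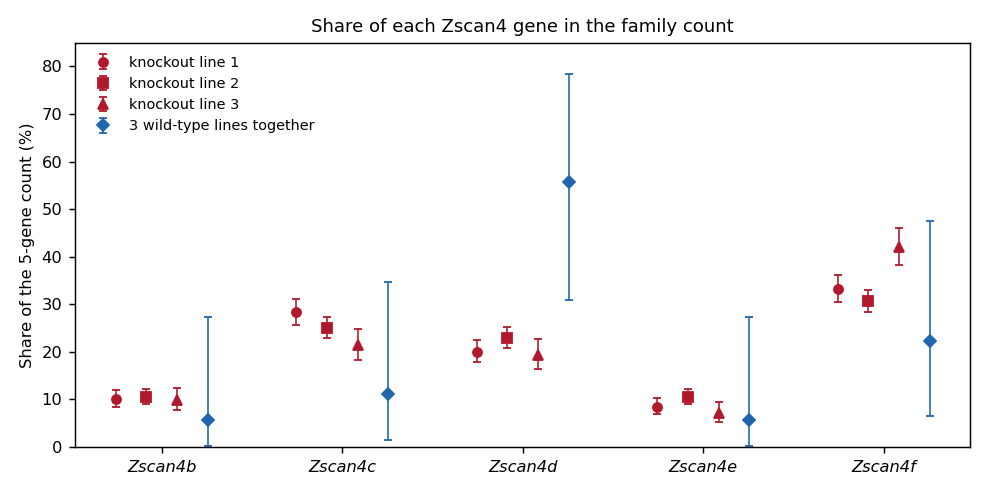
Share of each gene in the summed count of the 5 Zscan4 genes (y axis, percent) in each knockout line and in the 3 wild-type lines together, with exact 95% binomial intervals as bars. Zscan4f is highest in knockout line 3 at 42.1%, and Zscan4d holds 55.6% of the 18 wild-type counts.

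Knockout line 3 was thus the highest line for the 5-gene sum, though Zscan4e was highest in line 2. Only for Zscan4f did the counting interval of line 3 lie apart from those of both other knockout lines. The level in line 3 over the mean of knockout lines 1 and 2 was 1.83 for Zscan4f and 1.33 for Zscan4b. It was 1.26 for Zscan4d, 1.12 for Zscan4c and 1.06 for Zscan4e. For the 5-gene sum it was 1.39, and for the sum of the 4 genes other than Zscan4f it was 1.19. Among 8227 genes with a knockout mean of 5 to 100 CPM the median of this ratio was 0.998, and 77 of them (0.936%) reached 1.5. The CV across knockout lines was 38% for Zscan4f, 17.3% for Zscan4b, 14.2% for Zscan4d, 10.8% for Zscan4c and 8.92% for Zscan4e, beside a median of 6.43% and a 95th percentile of 18.1% among those 8227 genes. Those 8227 genes were not matched to the members in level, and counting error is part of each CV. Line 3 was also the shallowest knockout library, with 8235299 gene counts.

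Of the 33 other 2-cell-like state genes with a row, 12 were higher in line 3 than in the mean of lines 1 and 2. Of that list, 21 genes had a knockout mean of at least 5 CPM, and their level in line 3 over the mean of lines 1 and 2 was 0.948 in the median. The lowest was Usp17lc at 0.807, a member of a multicopy deubiquitinase family, and the highest was Gm5662 at 1.23. Zscan4b, Zscan4d and Zscan4f lay above that range, while Zscan4c and Zscan4e lay within it. Among the 12 list genes under 5 CPM, Duxf3, Gm5039 and Arg2 also lay above it, at 1.34, 1.32 and 1.24, beside the 1.33 of Zscan4b and the 1.26 of Zscan4d.

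**Figure D3:**
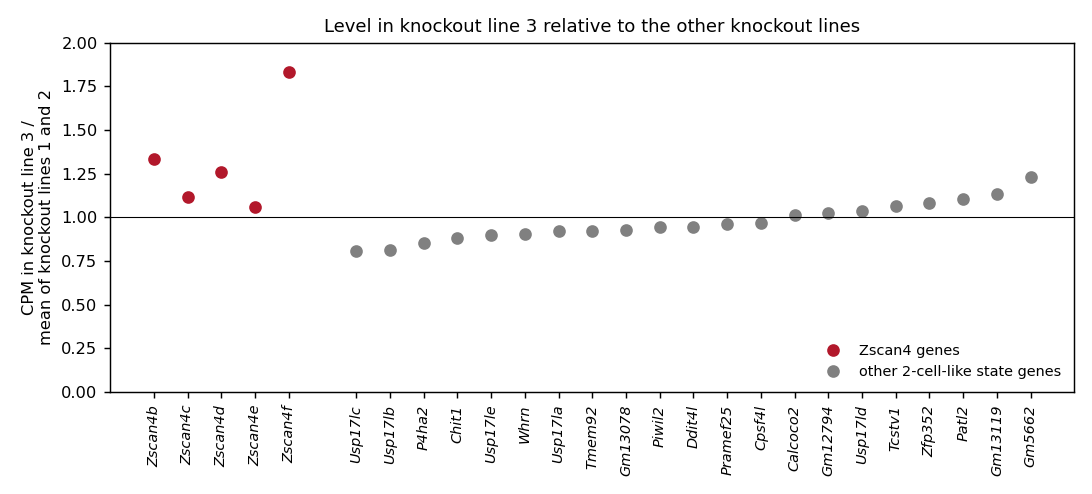
Level in knockout line 3 divided by the mean of knockout lines 1 and 2 (y axis) for the 5 Zscan4 genes and for the 21 other 2-cell-like state genes with a knockout mean of at least 5 CPM. Zscan4f stands at 1.83, and the 21 other genes lie between 0.807 and 1.23.

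Genes around the cluster that had a row in the table were almost all at 0 counts, but most annotated genes there had no row. Within 500 kb of the outermost members GENCODE lists 85 genes, members included, many of them pseudogenes. Members aside, 20 had a row, 14 of them named Vmn1r (vomeronasal receptor genes and pseudogenes), and 19 had 0 counts in all 6 libraries. The genes without a row could not be examined. Between the members lay 3 of these, all with 0 counts. They are annotated as microRNAs of 76 to 121 bases, so in poly(A) libraries their 0 counts say little about the region. The exception was Zik1, which encodes a zinc finger protein with a KRAB domain, at 3.75, 3.68 and 5.02 CPM in the knockout lines against 3.85, 6.50 and 4.18 CPM in the wild-type lines. Zik1 was not called (edgeR log2 fold change -0.19, SE 0.190, adjusted p = 0.42).

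**Figure D4:**
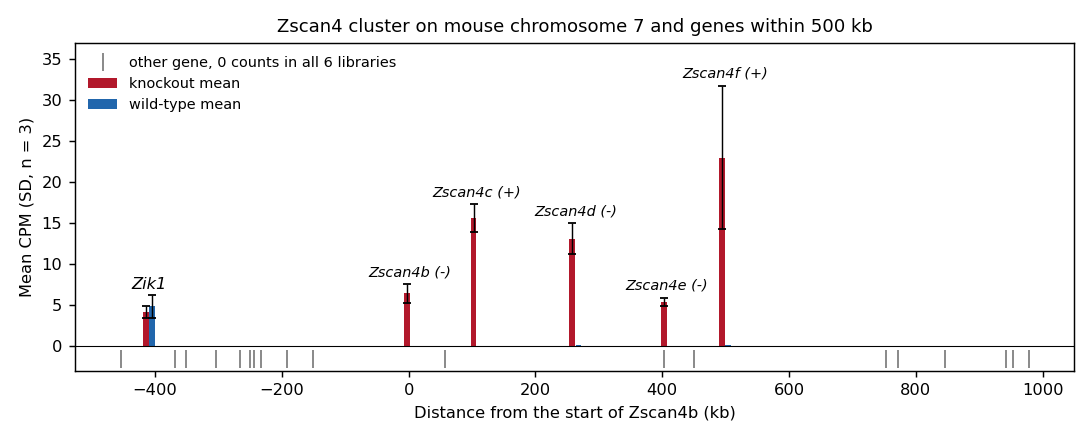
Mean levels in CPM (y axis, n = 3 lines, with SD on the knockout bars and on Zik1) of the Zscan4 genes and of Zik1, in knockout and wild-type lines, by distance from the start of Zscan4b in kb, with the strand of each Zscan4 gene in parentheses. Ticks under the axis mark the 19 genes with 0 counts in every library, and the Zscan4 bars of the wild-type lines are too low to see.

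Other genes of the SCAN zinc finger family were called in both directions or not called. Of 12 genes named Zscan outside the cluster, 11 were tested, 3 were called higher, 4 lower and 4 neither way in the knockout, beside 26.5% higher and 24.0% lower among all genes tested. Zscan5b had 2.53, 2.93 and 3.18 CPM in the knockout lines against 0.983, 1.5 and 1.16 CPM in the wild-type lines, with no overlap (edgeR log2 fold change 1.31, SE 0.228, adjusted p = 9.0e-05). Zscan22 and Zscan20 had log2 fold changes of 0.39 and 0.32, and Zscan18, Zscan26, Zscan12 and Zscan10 had -0.32, -0.30, -0.29 and -0.13. Zscan10, which encodes a pluripotency factor, had 243.8 ± 9.93 CPM in knockout and 267.7 ± 13.3 CPM in wild-type lines. With DESeq2 the calls of Zscan20, Zscan12 and Zscan10 were lost (adjusted p = 0.057, 0.1 and 0.062). The median log2 fold change of the 11 genes was 0.18, beside 0.0055 over all genes tested.

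Among genes reported to act on Zscan4 or on the 2-cell-like state, both reported activators and reported repressors were called in the knockout, the repressors in both directions. Of 32 such genes, all tested, 9 were called higher and 11 lower in the knockout, where 26.5% of all genes tested were called higher and 24.0% lower. The median log2 fold change of the list was -0.04. The list was recalled from published work, holds genes with opposite reported roles, and was chosen with earlier results of these data known.

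Duxf3, the double homeobox factor known to switch on Zscan4 and MERVL in mouse cells, had 1.98, 2.04 and 2.69 CPM in the knockout lines against 0.0819, 0.25 and 0 CPM in the wild-type lines. Line 3 had the highest Duxf3 value of the knockout lines, as for the 5-gene Zscan4 sum. Duxf3 had 118 knockout counts in all, and its difference between knockout lines was not tested. Between genotypes the edgeR log2 fold change was 4.56 (SE 0.469, adjusted p = 1.6e-07). Duxf3 is a repeated gene with 4 wild-type counts in all, and it too passed the filter through the knockout libraries. Dppa2, reported to activate Dux, had 83.7, 91.1 and 102 CPM in the knockout lines against 66.7, 70 and 77.5 CPM in the wild-type lines (edgeR log2 fold change 0.36, SE 0.074, adjusted p = 0.00055). Its partner Dppa4 was not called, with a log2 fold change of 0.02, nor was Nelfa, at 0.11.

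Tbx3, a T-box factor reported to raise Zscan4 by lowering Dnmt3b, had 353, 430 and 370 CPM in the knockout lines against 133, 127 and 149 CPM in the wild-type lines. This was a log2 fold change of 1.49 (SE 0.078, edgeR adjusted p = 2.1e-09). Dnmt3b, a de novo DNA methyltransferase, had 173, 154 and 176 CPM in the knockout lines against 547, 495 and 517 CPM in the wild-type lines (edgeR log2 fold change -1.64, SE 0.061, adjusted p = 7.3e-14). Neither gene's groups overlapped. Dnmt1 and Dnmt3a were not called, at -0.05 each, while Uhrf1, which guides DNMT1, was called higher, at 0.16 (edgeR adjusted p = 0.021).

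Of the repressors, Smchd1, a chromatin protein reported to keep Dux silent, had 36.2, 35.2 and 43.4 CPM in the knockout lines against 67.8, 65.5 and 66.1 CPM in the wild-type lines (edgeR log2 fold change -0.83, SE 0.072, adjusted p = 1.7e-08). Lin28a, reported to repress Dux together with nucleolin, was lower by edgeR (log2 fold change -0.75, adjusted p = 4.0e-08), and so was the nucleolin gene Ncl at -0.25. The Polycomb subunit gene Pcgf6 and the corepressor gene Zmym2 had log2 fold changes of -0.57 and -0.49. The histone methyltransferase genes Ehmt1, Ehmt2 and Setdb1 were lower by small amounts, with log2 fold changes of -0.16, -0.17 and -0.15. Rif1, a telomere protein reported to hold Zscan4 down, had 163 ± 12.6 CPM in knockout and 165 ± 10.2 CPM in wild-type lines and was not called. Kdm1a was not called either, at 0.00, while other reported repressors were called higher, namely Trim28 at 0.14, Chaf1a at 0.25, L3mbtl2 at 0.28 and Pias4 at 0.31. L3mbtl2 encodes a subunit of the same Polycomb complex as Pcgf6, which was lower. Zfp57, which guards imprinted methylation, was higher by a log2 fold change of 0.98.

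**Figure D5:**
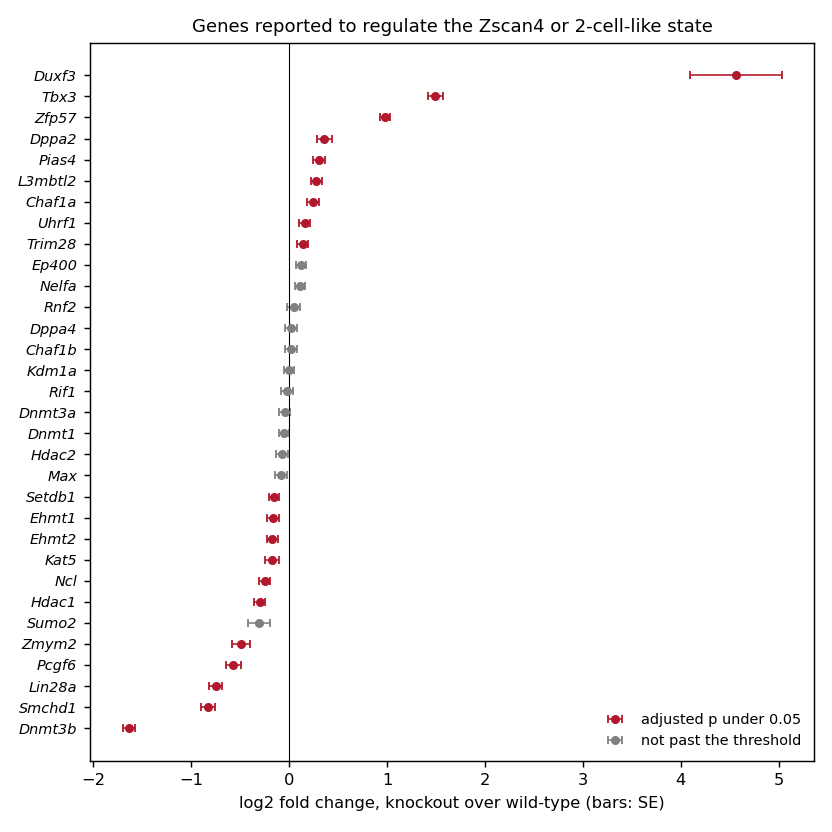
Log2 fold change, knockout over wild-type (x axis, bars are SE), of 32 genes reported to act on Zscan4 or on the 2-cell-like state, in red where the edgeR adjusted p was under 0.05. Duxf3 is highest at 4.56 and Dnmt3b lowest at -1.64, and most of the genes lie within 0.5 of 0.

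Genes of the processes that ZSCAN4 has been linked to, telomere maintenance and recombination, were called about as often as all genes. Of 23 telomere genes tested, 5 were called higher and 7 lower (median log2 fold change -0.02), where 26.5% of all genes tested were called higher and 24.0% lower. The higher ones were Tcstv1 and Tcstv3, 2-cell genes reported to lengthen telomeres, with Tinf2, Terf1 and Dkc1. Tcstv1 had 347 counts in knockout and 1 in wild-type libraries, and Tcstv3 had 156 and 1. Both passed the filter on low counts through the knockout libraries and so could only be called higher. Both are also in the list of 2-cell-like state genes. Tinf2, of the shelterin complex that caps telomeres, had 74.7, 79.5 and 71.3 CPM in the knockout lines against 51.8, 49.9 and 50.1 CPM in the wild-type lines (edgeR log2 fold change 0.57, adjusted p = 3.0e-07). Pot1a, another shelterin gene, had 14.1, 13.9 and 14.8 CPM in the knockout lines against 24.7, 25.5 and 25.6 CPM in the wild-type lines (edgeR log2 fold change -0.83, adjusted p = 7.9e-08). The telomerase gene Tert had a log2 fold change of 0.20 and was not called (edgeR adjusted p = 0.055). Dkc1 and Atrx, with log2 fold changes of 0.37 and -0.50, are X-linked.

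Of 18 recombination genes tested, 4 were called higher and 6 lower (median log2 fold change -0.10). Among all genes tested, 26.5% were called higher and 24.0% lower. Sycp1, of the synaptonemal complex, had 2.53, 3.43 and 2.94 CPM in the knockout lines against 0.574, 0.875 and 0.966 CPM in the wild-type lines (edgeR log2 fold change 1.98, SE 0.259, adjusted p = 3.6e-06). Smc1b, a meiotic cohesin gene, Sycp3 and the recombinase gene Dmc1 were also higher, with log2 fold changes of 1.68, 0.98 and 0.45. Other meiotic genes did not follow, since Mnd1 was called lower at -0.59 and Hormad1 and Psmc3ip were not called, at 0.35 and 0.07. Spo11, which cuts DNA to start meiotic recombination, was not tested, with 1 count in knockout and 8 in wild-type libraries. The other lower genes were Rad52 at -0.27, the DNA break sensors Nbn and Mre11a, at -0.55 and -0.35, and the helicase genes Blm and Wrn, at -0.28 and -0.55.

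In the list of other 2-cell-like state genes, 31 of 32 tested were called higher, beside 26.5% of all genes tested, and Cpsf4l was called lower. Summed over the 33 listed genes with a row, the level was 471 to 494 CPM in the knockout and 168 to 177 CPM in wild-type lines. Of the 32 tested, 13 had 3 or fewer wild-type counts and so could only be called higher, and the list was chosen with this outcome known. Each of 10345 genes with a knockout mean of at least 5 CPM was scaled to its own knockout mean and compared with the 5-gene sum over the 6 libraries, by the largest difference in any library. The nearest was Slc38a5, an X-linked amino acid transporter gene, with a largest difference of 0.104. It had 12.5, 11.5 and 14.5 CPM in the knockout lines against 1.06, 1 and 0.579 CPM in the wild-type lines. Gm5662, A430089I19Rik, Gm13119 and BC080695 followed, with largest differences of 0.115, 0.133, 0.148 and 0.151.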

How the data were processed

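The deposited table holds raw counts per gene or repeat family, whole numbers that the authors did not normalize, for which the submitters' processing notes name the mm10 build, TopHat2 2.0.11 and featureCounts 1.4.5. The labels' protocols call the libraries strand-specific, and the sources give no counting options. A second table with 6 columns whose names match no label was not used. Of 41388 gene rows, 40254 matched a GENCODE M21 symbol, and 902 repeat rows were left out. The test was that of edgeR 4.0.16 under R 4.3.3 (filterByExpr, TMM, robust glmQLFit, glmQLFTest, two-sided, knockout against wild-type, no covariate) with a call where the Benjamini-Hochberg adjusted p was under 0.05. CPM uses TMM-scaled gene totals. SE is the log2 fold change over the square root of F. P-values test the genotype difference against the spread between lines, which the fit estimates partly from other genes. Intervals cover counting error only. The fit was tested on simulated data. The members and lists were chosen with earlier results of these data known. Named genes are the members, other Zscan genes, neighbours with at least 20 counts, the 5 smallest p of each list, Mir34a and the 5 nearest profiles, and other names were chosen after their values were seen. Alternatives were other scalings, DESeq2 1.42.0, limma 3.58.1 voom, other filters, a replicate block, robust = FALSE and each library left out.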

Additional observations from a re-analysis of the deposited data

How the results depend on the processing

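All 5 Zscan4 genes were called higher in the knockout under each of the 14 alternatives run, with fitted log2 fold changes of 6.93 to 9.77 for Zscan4b, 7.72 to 8.66 for Zscan4c, 5.64 to 6.17 for Zscan4d, 6.75 to 9.58 for Zscan4e and 7.32 to 8.28 for Zscan4f. The highest adjusted p over these alternatives was 0.0058, for Zscan4f without wild-type line 3. Without that line Zscan4b and Zscan4e had 0 wild-type counts. Leaving out each line in turn gave a summed knockout level of 56.2 to 68.1 CPM and a summed wild-type level of 0.228 to 0.454 CPM. Without Zscan4f, an alternative chosen after seeing the data, the sum was 40.6 CPM in the knockout. Genes called higher numbered 3096 to 4146 and lower 2844 to 3948 over the alternatives. Of 47 other named genes tested, none changed direction, and 15 of 658 values lost their call. Those were values of Zscan20, Zscan12 and Zscan10, and Zscan25 gained a call in 2. Deviations of same-numbered lines correlated at 0.246, 0.003 and 0.238 across 10312 genes, against -0.278 to 0.14 for lines of different numbers. With so few lines, these values cannot show whether the replicate numbers pair the lines. With the number as a replicate block, 4054 genes were called higher, 3779 lower and all 5 Zscan4 genes higher. No rows of other Zscan4 copies were at hand to add to the sum, so that alternative was not run. Depth limits the wild-type values, since 3 counts stand for up to 0.378 CPM.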
